A study of Mus musculus with 4 samples.

Results

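Interferon-induced antiviral effector genes were followed across 4 mouse oral cancer cell lines. The set was defined by name: every measured gene whose symbol begins with Ifit, Ifitm, Oas or Gbp followed by a number, together with 25 further listed genes such as Isg15, Rsad2, Mx1 and Bst2. It held 52 of the 19505 named genes on the Affymetrix Mouse Clariom S array, 28 of them through a prefix and 24 from the list. Ifi44, the remaining listed gene, was not analysed here. Each of the 52 genes was read by 1 probe set, and the rule goes by name and uses no measured value.

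The 4 lines came from 2 tongue tumors that arose in separate C57BL/6 mice given the carcinogen 4-NQO together with arecoline, an alkaloid of the betel nut. NHRI-HN1 was selected from the line M1-2 by sphere culture, and NHRI-HN2 from the line M2-3 in the same way; M1-2 and M2-3 are the lines that grew out of the tumors. All 4 were cultured attached to dishes in DMEM with fetal bovine serum, with no interferon or other agent named in the labels. NHRI-HN1 was the line described as tumorigenic in syngeneic mice, and the others were not. Each line was hybridised once, each subline is 1 derivation, and no repeat culture of any line is among these arrays. A difference between 2 lines is therefore given as a difference between 2 arrays with no test, and differences of at least 1 log2 unit, called 2-fold here, were counted. The values were taken as log2; because the sources used here do not give the log base, 2-fold stands for 1 unit of the deposited scale.

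Interferons are secreted proteins that cells release after sensing viral or other foreign nucleic acid. They bind receptors on the cell surface, and the JAK kinases then phosphorylate STAT proteins. A complex that holds STAT2 and IRF9 binds the interferon-stimulated response element (ISRE) in front of its target genes, and the gamma-activated site (GAS) is a further element of interferon targets. The products of the target genes act at different steps of an infection: they hold back virus entry or release, bind or degrade viral RNA, limit the supply of nucleotides, attack membranes around pathogens, and attach the small protein ISG15 to other proteins.

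The promoters of these genes were read from RefSeq (assembly GRCm38.p6) to show the element that the signalling pathway uses. Windows from 250 bases before to 50 bases after the transcription start were at hand for 37 of the 52 genes. Both strands were searched for an ISRE core, GAAANNGAAA, and for a GAS core, TTCNNNGAA; the ISRE core reads as TTTC blocks on the opposite strand. The ISRE core occurred in 21 of the 37 genes (56.76%), against 618 of 15691 genes with a window (3.939%). The GAS core occurred in 11 of the 37 (29.73%), against 1416 of 15691 (9.024%). Of the 37 genes, 6 held both cores and 11 held neither. In 8 genes copies of the ISRE core overlapped, so that 3 or more GAAA blocks followed each other at steps of equal length. A match shows that these letters occur and not that a factor binds there.

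The following stretches hold the ISRE core of genes described below, with up to 20 bases on each side and cut at the start site; the strand is that of the gene, and the capitals mark the GAAA blocks of the core or their complement TTTC. They were picked for genes with large differences between lines, and the paired genes show how similar the elements of neighbouring copies are.
Ifit3, chr19:34583353-34583436, plus strand: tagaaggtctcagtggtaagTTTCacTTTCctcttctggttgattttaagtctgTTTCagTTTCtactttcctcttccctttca
Ifit3b, chr19:34607749-34607832, plus strand: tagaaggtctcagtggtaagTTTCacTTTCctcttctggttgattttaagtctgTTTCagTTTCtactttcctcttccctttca
Ifit1, chr19:34640765-34640833, plus strand: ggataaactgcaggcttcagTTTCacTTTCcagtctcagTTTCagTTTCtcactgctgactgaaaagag
Ifit1bl2, chr19:34640765-34640833, minus strand: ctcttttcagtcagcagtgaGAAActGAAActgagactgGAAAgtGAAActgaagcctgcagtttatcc
Isg15, chr4:156200855-156200916, minus strand: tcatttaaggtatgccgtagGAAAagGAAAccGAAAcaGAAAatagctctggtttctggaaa
Rsad2, chr12:26456543-26456592, minus strand: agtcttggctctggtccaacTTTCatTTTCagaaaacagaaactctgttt
Oas1a, chr5:120907526-120907565, minus strand: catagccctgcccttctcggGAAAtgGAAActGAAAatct
Oas1g, chr5:120887614-120887651, minus strand: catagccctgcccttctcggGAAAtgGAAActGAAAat
Bst2, chr8:71537567-71537622, minus strand: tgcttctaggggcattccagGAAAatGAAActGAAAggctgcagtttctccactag
Gbp3, chr3:142559979-142560034, plus strand: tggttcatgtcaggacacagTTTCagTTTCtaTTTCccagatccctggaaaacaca
Igtp, chr11:58199502-58199551, plus strand: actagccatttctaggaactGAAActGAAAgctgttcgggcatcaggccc
Irgm2, chr11:58214893-58214942, plus strand: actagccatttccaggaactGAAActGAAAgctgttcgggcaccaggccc
Ifitm2, chr7:140955978-140956027, minus strand: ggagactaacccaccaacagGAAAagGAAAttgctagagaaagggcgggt

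The stretches of Ifit3 and Ifit3b were identical over all 84 bases, and those of Oas1a and Oas1g over the 38 bases they share. Igtp and Irgm2 were identical at 48 of 50 bases. Ifit1 and Ifit1bl2 lie head to head and share 1 stretch of DNA, read in opposite directions. Ifitm2 is shown because it holds the core although its level was nearly the same in all 4 lines.

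In NHRI-HN1 most of the antiviral genes were far above their level in M1-2, the line it came from. The median difference was 2.71 log2 units for the 52 genes and 0 for all named genes, and the single genes ranged from -1.38 to 9.88. Of the 52 genes, 38 were at least 2-fold higher in NHRI-HN1 than in M1-2 and 1, Samhd1, was at least 2-fold lower, followed on that side by Ifi27 at -0.61, Oas1h at -0.48 and Ifitm2 at -0.06. Over all named genes 12.1% were higher and 12.2% lower by that much. NHRI-HN1 was at least 4 log2 units higher than M1-2 in 20 of the 52 genes and in 265 of the 19505 named genes. The array reads RNA of a whole culture, so fewer expressing cells and less RNA per cell cannot be told apart in any of these differences.

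NHRI-HN1 held the highest value of the 4 lines for 44 of the 52 genes (28.7% of all named genes had their highest value there), and 34 of the 52 were there at least 2-fold higher than in every other line (5.89% of all named genes). The lowest value fell in M2-3 for 34 of the 52 (24.8% of all named genes). For 30 genes M1-2 and NHRI-HN2 both lay between NHRI-HN1 at the top and M2-3 at the bottom. Of all named genes 11.4% had that order. The median level of the 52 genes was 9.11 in NHRI-HN1, 4.53 in M1-2, 5.31 in NHRI-HN2 and 3.98 in M2-3, while the median over all named genes, called the array median here, was 4.94 in NHRI-HN1, 4.89 in M1-2, 4.96 in NHRI-HN2 and 4.75 in M2-3.

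**Figure D1:**
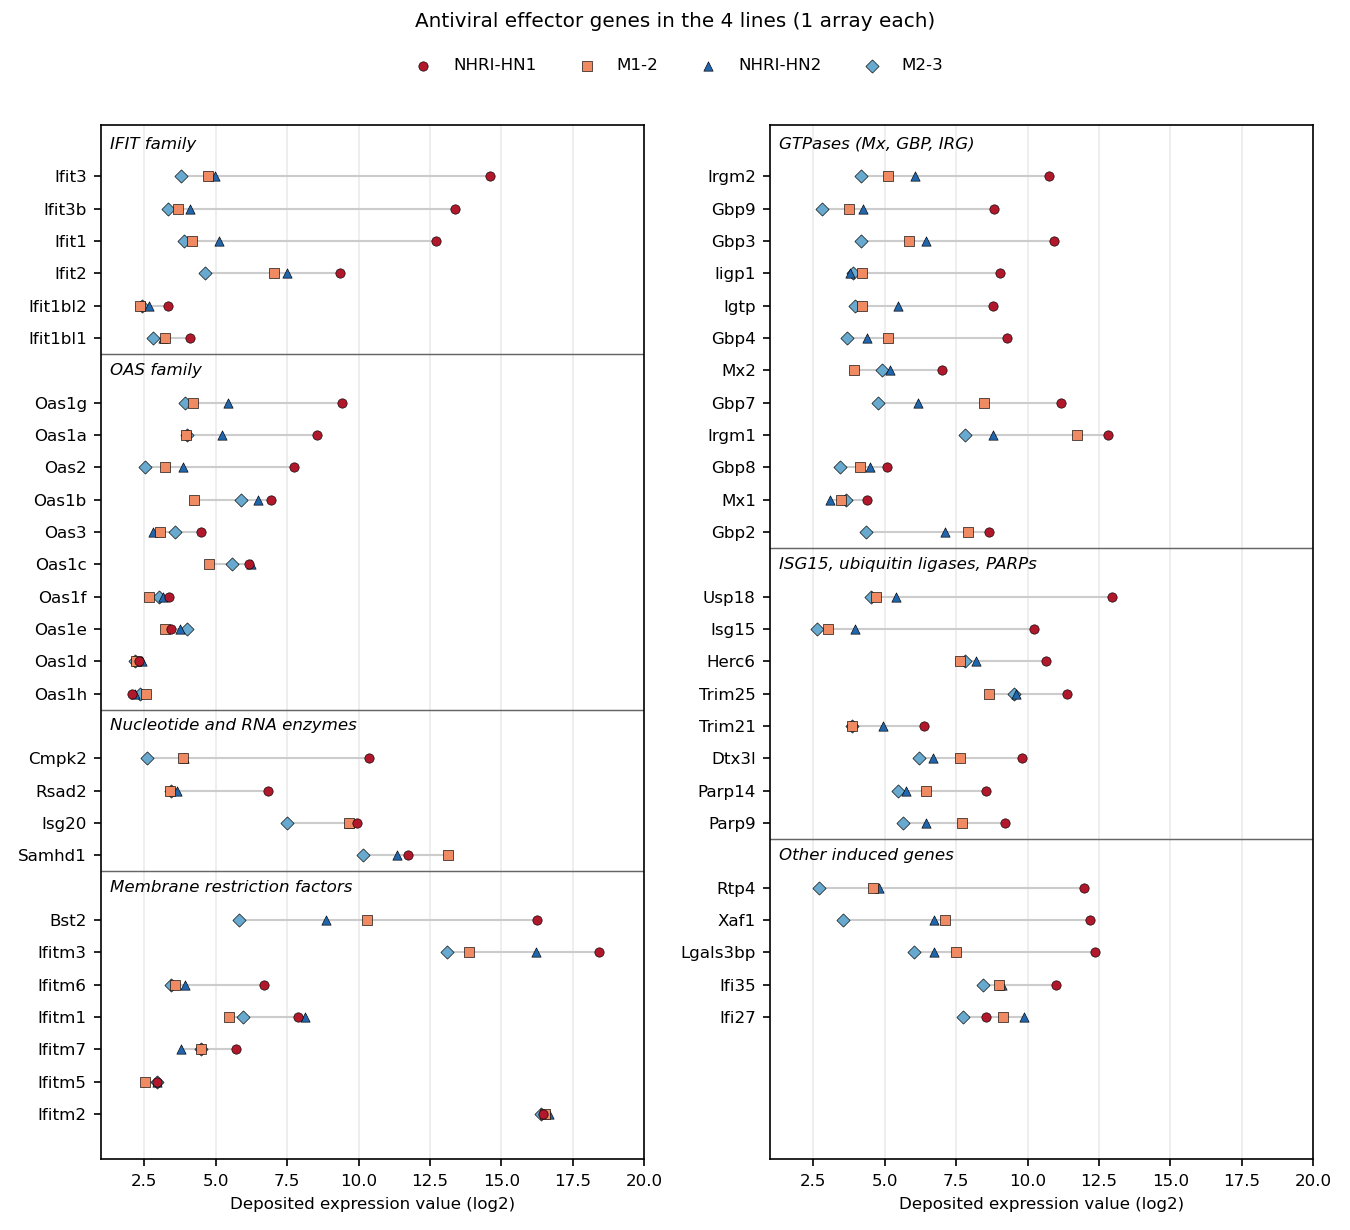
Deposited expression value (log2, horizontal axis) of the 52 genes in NHRI-HN1, M1-2, NHRI-HN2 and M2-3, 1 point for each array, grouped by role and sorted within a group by the difference between NHRI-HN1 and M1-2. A grey line spans the lowest and highest line; Ifit3 reaches 14.60 in NHRI-HN1 with the other lines between 3.77 and 4.98, while Ifitm2 stays between 16.37 and 16.67 in all 4.

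The limma fit set NHRI-HN1 against the mean of the 3 other lines. Its error is the spread of those 3 lines at 2 residual degrees of freedom, and NHRI-HN2 descends from M2-3, so its p-values say how far NHRI-HN1 lay outside 3 particular and partly related lines and nothing about repeat cultures. In this fit 5 of the 52 genes were called higher in NHRI-HN1 at an adjusted p under 0.05, against 0.508% of all named genes, and 0 of the 52 were called lower, against 0.113%. At an unadjusted p under 0.05, 35 of the 52 were higher and 0 lower, against 1146 and 668 of all named genes. The 5 called genes were Ifit3b, Ifit3, Usp18, Ifit1 and Isg15. Their calls rest on M2-3, on NHRI-HN2 and on a variance prior that follows intensity: limma called 0 genes without M2-3, without NHRI-HN2 or without that prior. In these fits 26, 25 and 33 of the 52 genes had an unadjusted p under 0.05, against 1214, 993 and 1947 of all 19505 named genes. The fit also called 0 genes with a block for the tumor of origin (lowest adjusted p = 0.0520) and with dim genes left out (lowest adjusted p = 0.0826). With the block 32 of the 52 genes had an unadjusted p under 0.05, against 2708 of all 19505 named genes. Without dim genes 24 of the 35 genes of the set that were kept did, against 974 of 9755. The difference of Ifit3 stayed about as large, at 9.75 without M2-3 and 10.36 without NHRI-HN2, in fits with 1 residual degree of freedom. With the block, also at 1 residual degree of freedom, it was 9.88. That value is the difference between NHRI-HN1 and M1-2 itself, since M2-3 and NHRI-HN2 do not enter it. Without M1-2 the reference is M2-3 and its own subline NHRI-HN2, and the difference of Ifit3 was 10.22.

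The IFIT proteins bind foreign RNA and keep it from being translated. Ifit3, which stabilises its partner Ifit1 on RNA in human cells, was at 14.60 in NHRI-HN1, 4.72 in M1-2, 4.98 in NHRI-HN2 and 3.77 in M2-3. NHRI-HN1 stood apart from the other 3 lines, which lay around the array medians. The limma difference was 10.11 log2 units (SE 0.79, adjusted p = 0.0342). Ifit3b, a near copy of Ifit3, was at 13.37 in NHRI-HN1, 3.69 in M1-2, 4.09 in NHRI-HN2 and 3.33 in M2-3 (limma difference 9.67, SE 0.68, adjusted p = 0.0340). Whether the probe sets of these 2 copies read each other's RNA was not tested. Ifit1, which recognises RNA whose cap lacks the methylation of cellular mRNA, was at 12.70 in NHRI-HN1, 4.16 in M1-2, 5.11 in NHRI-HN2 and 3.89 in M2-3 (limma difference 8.31, SE 0.79, adjusted p = 0.0381). In these 3 genes the values of M1-2, NHRI-HN2 and M2-3 were near or under the array medians.

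Ifit2 had a different pattern from the other 3 IFIT genes. It was at 9.35 in NHRI-HN1, 7.03 in M1-2, 7.50 in NHRI-HN2 and 4.62 in M2-3, so M2-3 alone was near the array median and the other 3 lines were above it. The 2 remaining family members were dim in every line: Ifit1bl1 ranged between 2.81 and 4.11, and Ifit1bl2 between 2.36 and 3.32, with NHRI-HN1 the highest for both. Ifit1bl2 stayed below every array median in spite of the ISRE cores that it shares with Ifit1.

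The OAS enzymes sense double-stranded RNA and make short chains of adenylate that switch on RNase L, which cuts RNA. Of 10 Oas genes, 6 were at least 2-fold higher in NHRI-HN1 than in M1-2 (12.1% of all named genes). Oas1g was at 9.42 in NHRI-HN1, 4.21 in M1-2, 5.43 in NHRI-HN2 and 3.94 in M2-3. Oas1a was at 8.53 in NHRI-HN1, 3.95 in M1-2, 5.22 in NHRI-HN2 and 3.98 in M2-3. Oas2 was at 7.73 in NHRI-HN1, 3.22 in M1-2, 3.86 in NHRI-HN2 and 2.52 in M2-3. For all 3, NHRI-HN2 was second and the parental lines lay below it.

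Oas1b, the flavivirus resistance gene of mice, was at 6.95 in NHRI-HN1, 4.23 in M1-2, 6.49 in NHRI-HN2 and 5.88 in M2-3. It was the 1 gene of the 52 that was at least 2-fold lower in M1-2 than in each other line (3.57% of all named genes). Oas1c had a like order at a smaller scale, with 6.17 in NHRI-HN1, 4.76 in M1-2, 6.24 in NHRI-HN2 and 5.56 in M2-3. Oas3 was at 4.49 in NHRI-HN1 and between 2.80 and 3.59 in the 3 other lines. Oas1d, Oas1e, Oas1f and Oas1h did not exceed 3.99 in any line; like Oas3, Ifit1bl1, Ifit1bl2, Ifitm5 and Mx1 they were under the median of the named genes in all 4 arrays.

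Another group of genes acts on nucleotides and RNA. Cmpk2, a mitochondrial nucleoside monophosphate kinase, was at 10.35 in NHRI-HN1, 3.85 in M1-2, 3.90 in NHRI-HN2 and 2.59 in M2-3 (limma difference 6.90, SE 0.77, adjusted p = 0.0509). Rsad2 (viperin), which lies beside Cmpk2 in the genome and makes a chain-terminating analog of CTP, was at 6.82 in NHRI-HN1 and between 3.40 and 3.65 in the other lines (limma difference 3.33, SE 0.46, adjusted p = 0.0780). Neither gene passed the threshold, although NHRI-HN1 lay more than 3 units above the highest of the other lines in both.

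Isg20 and Samhd1 did not share that pattern. Isg20, an exonuclease that degrades RNA, was at 9.93 in NHRI-HN1, 9.65 in M1-2, 9.65 in NHRI-HN2 and 7.50 in M2-3, so 3 lines were level and M2-3 was lower. Samhd1, which breaks down the deoxynucleotides that reverse transcription needs, was at 11.74 in NHRI-HN1, 13.12 in M1-2, 11.36 in NHRI-HN2 and 10.16 in M2-3. Its highest value was in M1-2, and no other gene of the 52 was at least 2-fold higher in M1-2 than in every other line. Of all named genes 4.34% were.

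Bst2 and the IFITM proteins act at membranes. Bst2 (tetherin), which holds budding virus particles on the cell surface, was at 16.25 in NHRI-HN1, 10.29 in M1-2, 8.85 in NHRI-HN2 and 5.82 in M2-3. The 4 lines were spread over more than 10 units, the widest range of the membrane genes, and the limma difference was 7.93 (SE 1.78, unadjusted p = 0.00688). Ifitm3, which blocks fusion of viruses in endosomes, was at 18.40 in NHRI-HN1, 13.88 in M1-2, 16.22 in NHRI-HN2 and 13.10 in M2-3. Both sublines were above both parental lines for Ifitm3. Ifitm1 also separated sublines and parents, with 7.87 in NHRI-HN1, 5.48 in M1-2, 8.12 in NHRI-HN2 and 5.97 in M2-3.

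Other IFITM genes did not follow them. Ifitm2 was bright and level, at 16.47 in NHRI-HN1, 16.53 in M1-2, 16.67 in NHRI-HN2 and 16.37 in M2-3. Ifitm6 was at 6.68 in NHRI-HN1 and between 3.45 and 3.92 elsewhere, and Ifitm7 was at 5.71 in NHRI-HN1 and between 3.80 and 4.48 elsewhere. Ifitm5, known as a gene of bone-forming cells, stayed between 2.54 and 2.96.

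The guanylate-binding proteins (GBP) and the immunity-related GTPases (IRG: Igtp, Irgm1, Irgm2 and Iigp1) are GTPases that gather on the membranes around intracellular pathogens, and the Mx GTPases block the replication of viruses. All 12 GTPase genes were higher in NHRI-HN1 than in M1-2, 9 of them at least 2-fold (49.6% and 12.1% of all named genes). Irgm2 was at 10.76 in NHRI-HN1, 5.13 in M1-2, 6.06 in NHRI-HN2 and 4.18 in M2-3. Igtp, whose ISRE stretch is nearly that of Irgm2, was at 8.78 in NHRI-HN1, 4.19 in M1-2, 5.48 in NHRI-HN2 and 3.97 in M2-3. Gbp9 was at 8.81 in NHRI-HN1, 3.74 in M1-2, 4.24 in NHRI-HN2 and 2.82 in M2-3. In each of the 3 genes NHRI-HN2 was above M1-2, and M2-3 was lowest.

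Gbp3 was at 10.92 in NHRI-HN1, 5.86 in M1-2, 6.43 in NHRI-HN2 and 4.16 in M2-3, the same order of lines. Iigp1 was at 9.02 in NHRI-HN1, 4.19 in M1-2, 3.79 in NHRI-HN2 and 3.88 in M2-3 (limma difference 5.07, SE 0.57, adjusted p = 0.0514). For Iigp1 only NHRI-HN1 was above the array median. Gbp4 was at 9.29 in NHRI-HN1, 5.10 in M1-2, 4.38 in NHRI-HN2 and 3.68 in M2-3.

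Some GTPase genes differed more between the parental lines than between NHRI-HN1 and M1-2. Irgm1 was at 12.80 in NHRI-HN1, 11.74 in M1-2, 8.78 in NHRI-HN2 and 7.81 in M2-3, so the 2 lines of the M1-2 tumor stood above the 2 lines of the other tumor. Gbp2 was at 8.65 in NHRI-HN1, 7.91 in M1-2, 7.11 in NHRI-HN2 and 4.36 in M2-3. Gbp7 was at 11.16 in NHRI-HN1, 8.46 in M1-2, 6.18 in NHRI-HN2 and 4.78 in M2-3. Mx2 was at 7.01 in NHRI-HN1 and between 3.92 and 5.17 elsewhere. Mx1, of which C57BL/6 mice are known to carry a deletion, stayed between 3.08 and 4.37, and Gbp8 between 3.45 and 5.08.

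ISG15 is a ubiquitin-like protein that is attached to other proteins during an interferon response, and several of the listed genes write, erase or read such marks. All 8 genes of this group were at least 2-fold higher in NHRI-HN1 than in M1-2 (12.1% of all named genes). Isg15 itself was at 10.23 in NHRI-HN1, 3.01 in M1-2, 3.97 in NHRI-HN2 and 2.62 in M2-3 (limma difference 7.03, SE 0.73, adjusted p = 0.0451). Usp18, the protease that removes ISG15 and that also restrains type I interferon receptor signalling, was at 12.95 in NHRI-HN1, 4.68 in M1-2, 5.39 in NHRI-HN2 and 4.51 in M2-3 (limma difference 8.09, SE 0.72, adjusted p = 0.0352). Isg15 and Usp18 were near or below the array median in the 3 other lines. Herc6, the main ISG15 ligase of mice, was at 10.65 in NHRI-HN1 and between 7.64 and 8.18 in the others, which were level with each other.

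The ubiquitin ligases Trim21, a cytosolic antibody receptor, and Trim25, an activator of the RNA sensor RIG-I, had the same leading line. Trim21 was at 6.38 in NHRI-HN1, 3.86 in M1-2, 4.93 in NHRI-HN2 and 3.87 in M2-3. Trim25 was at 11.39 in NHRI-HN1, 8.65 in M1-2, 9.58 in NHRI-HN2 and 9.52 in M2-3. Dtx3l and Parp9, which form a complex of a ubiquitin ligase and an ADP-ribosyltransferase, ran in parallel over the lines. Dtx3l was at 9.80 in NHRI-HN1, 7.63 in M1-2, 6.69 in NHRI-HN2 and 6.21 in M2-3. Parp9 was at 9.20 in NHRI-HN1, 7.70 in M1-2, 6.44 in NHRI-HN2 and 5.63 in M2-3. Parp14, a further ADP-ribosyltransferase, had the same order of lines, between 8.54 in NHRI-HN1 and 5.46 in M2-3.

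Among the remaining genes, Rtp4, a receptor transporter protein, was at 11.96 in NHRI-HN1, 4.58 in M1-2, 4.79 in NHRI-HN2 and 2.71 in M2-3 (limma difference 7.93, SE 1.04, adjusted p = 0.0719). Xaf1, a partner of the caspase inhibitor XIAP, was at 12.19 in NHRI-HN1, 7.10 in M1-2, 6.74 in NHRI-HN2 and 3.54 in M2-3. Lgals3bp, a secreted glycoprotein that binds galectins, was at 12.36 in NHRI-HN1, 7.48 in M1-2, 6.72 in NHRI-HN2 and 6.04 in M2-3. NHRI-HN1 led the next line by more than 4 units in all 3 genes. Ifi35, the partner of Nmi, was at 10.99 in NHRI-HN1 and between 8.45 and 9.12 elsewhere. Ifi27 was lower in NHRI-HN1 than in M1-2, at 8.54 in NHRI-HN1, 9.15 in M1-2, 9.89 in NHRI-HN2 and 7.75 in M2-3.

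NHRI-HN2 was compared with M2-3 as the second pair of a sphere-derived line and its parent, on arrays that the first pair does not use. The differences ran mostly the same way and were smaller: the median was 0.845 log2 units for the 52 genes and -0.06 for all named genes, with a range from -0.79 to 3.20. Of the 52 genes, 24 were at least 2-fold higher in NHRI-HN2 than in M2-3 (6.52% of all named genes) and 0 were at least 2-fold lower (5.69%). The largest differences were those of Xaf1 at 3.20, Ifitm3 at 3.12, Bst2 at 3.03 and Ifit2 at 2.88. Gbp2 followed at 2.75 and Gbp3 at 2.27. Isg20, Ifi27, Ifitm1 and Rtp4 differed by between 2.08 and 2.15 units. On the other side Oas3 was lower in NHRI-HN2 by 0.79 units, with 2.80 in NHRI-HN2 and 3.59 in M2-3, both under the array medians; Ifitm7, Mx1 and Oas1e were lower by between 0.24 and 0.68 units.

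**Figure D2:**
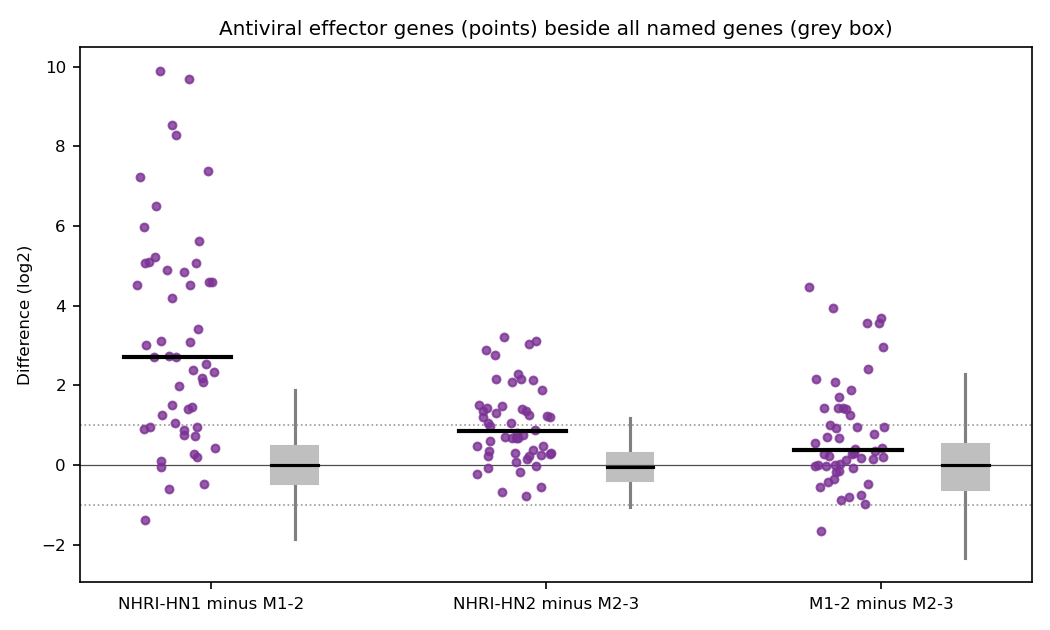
Difference between 2 arrays (log2, vertical axis) for the 52 genes (points, with a black line at their median) and, to the right of them, for all 19505 named genes (grey box from the 25th to the 75th percentile with its median, whisker from the 5th to the 95th). The medians of the 52 genes are 2.71 for NHRI-HN1 minus M1-2, 0.845 for NHRI-HN2 minus M2-3 and 0.375 for M1-2 minus M2-3; dotted lines mark 1 unit in either direction.

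The genes with the largest differences were not the same in both pairs. Usp18 and Ifit3b differed by 8.27 and 9.68 units between NHRI-HN1 and M1-2, and by 0.88 and 0.76 units between NHRI-HN2 and M2-3. Ifit2 had nearly the same difference in both pairs, 2.32 in NHRI-HN1 minus M1-2 and 2.88 in NHRI-HN2 minus M2-3. Gbp2, Isg20 and Ifi27 were at least 2-fold higher in NHRI-HN2 than in M2-3 and differed by less than 2-fold between NHRI-HN1 and M1-2. The difference between the 2 pairs was not tested for any gene, since each rests on 1 array a line.

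Both sublines were at least 2-fold above their own parent for 19 of the 52 genes (1.78% of all named genes). These were Ifit1, Ifit2 and Ifit3, Oas1a, Oas1g and Oas2, Gbp3, Gbp7, Gbp9, Igtp and Irgm2, Bst2, Ifitm1 and Ifitm3, Isg15 and Trim21, and Cmpk2, Rtp4 and Xaf1. They came from every role described above. Isg15 was 7.22 units higher in NHRI-HN1 than in M1-2 and 1.35 units higher in NHRI-HN2 than in M2-3. Ifitm3 was 4.52 units higher in NHRI-HN1 than in M1-2 and 3.12 units higher in NHRI-HN2 than in M2-3. Samhd1 alone among the 52 differed at least 2-fold in opposite directions, by -1.38 between NHRI-HN1 and M1-2 and by 1.20 between NHRI-HN2 and M2-3; 519 of all named genes did so.

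**Figure D3:**
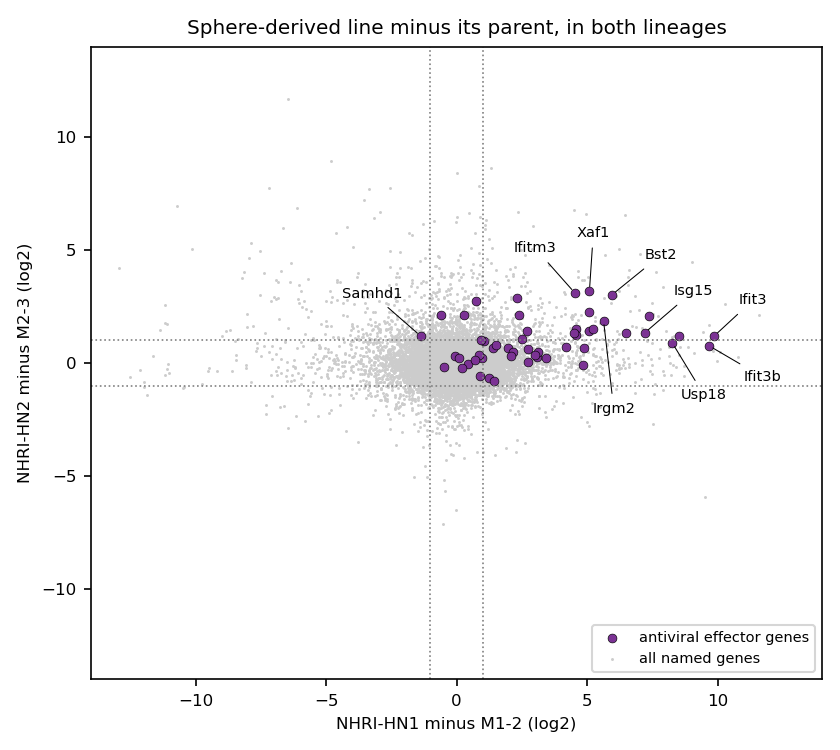
Difference between NHRI-HN1 and M1-2 (log2, horizontal axis) against the difference between NHRI-HN2 and M2-3 (log2, vertical axis) for the 52 genes (purple) and all named genes (grey), 1 point a gene; dotted lines mark 1 unit. Of the 52 genes 19 lie in the upper right field beyond both lines, and Samhd1 alone lies in the upper left one.

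The parental lines were set against each other as lines of separate tumors; both of their arrays also serve in the comparisons above. The median difference between M1-2 and M2-3 was 0.375 for the 52 genes and -0.01 for all named genes; with each array centred on its median over all probe sets these were 0.185 and -0.20. Of the 52 genes, 17 were at least 2-fold higher in M1-2 (13.7% of all named genes) and 1, Oas1b, was at least 2-fold lower (17.0%), a count of 3 with centring. The largest difference was that of Bst2 at 4.47, followed by Irgm1 at 3.93, Gbp7 at 3.68 and Xaf1 at 3.56. Below Oas1b, at -1.65, came Mx2 at -0.97, Trim25 at -0.87 and Oas1c at -0.80. None of the 5 genes called in the limma fit differed by 1 unit between M1-2 and M2-3, with a difference of 0.27 for Ifit1 and 0.95 for Ifit3. The fit takes its error from the spread of M1-2, M2-3 and NHRI-HN2, so it favours genes that differ little between these lines.

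In M2-3, 10 of the 52 genes were at least 2-fold lower than in every other line (3.19% of all named genes), namely Bst2, Cmpk2, Gbp2, Gbp3, Gbp7, Ifit2, Isg20, Rtp4, Samhd1 and Xaf1. The gap to the next line was 2.75 for Gbp2 and 2.15 for Isg20, and 1.20 for Samhd1.

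Genes whose promoter window held the ISRE core were compared with those that did not hold it. Between NHRI-HN1 and M1-2 the median difference was 4.52 for the 21 genes with the core, 17 of them at least 2-fold higher, and 2.25 for the 16 genes without it, of which 11 were at least 2-fold higher. Over all genes with a window the median was 0.065 with the core (17.64% at least 2-fold higher) and 0 without it (11.53%). Between NHRI-HN2 and M2-3 the median was 1.22 with the core, 13 of 21 at least 2-fold higher, and 0.575 without it, 6 of 16. Near copies such as Ifit3 and Ifit3b count as separate genes here. Of all named genes 6.52% were that much higher in this pair, and they were not split by the core. Single genes departed from these medians: Ifitm2, Oas3 and Ifit1bl2 hold it and differed by -0.06, 1.45 and 0.96 units between NHRI-HN1 and M1-2, while Cmpk2 and Xaf1 hold none in their windows and differed by 6.50 and 5.09.

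The interferon genes themselves were dim in all lines. Of 21 listed, 19 were measured, and 0 of the 19 differed by 1 unit in any of the pairs of lines compared. Ifnb1, encoding interferon beta, was at 3.63 in NHRI-HN1, 4.15 in M1-2, 3.79 in NHRI-HN2 and 3.51 in M2-3. Ifng, encoding interferon gamma, was at 3.49 in NHRI-HN1, 3.56 in M1-2, 3.60 in NHRI-HN2 and 3.60 in M2-3. Both were below every array median. Ifna5 was the single interferon gene above the array median, with values between 5.23 and 6.08 and M1-2 the highest.

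**Figure D4:**
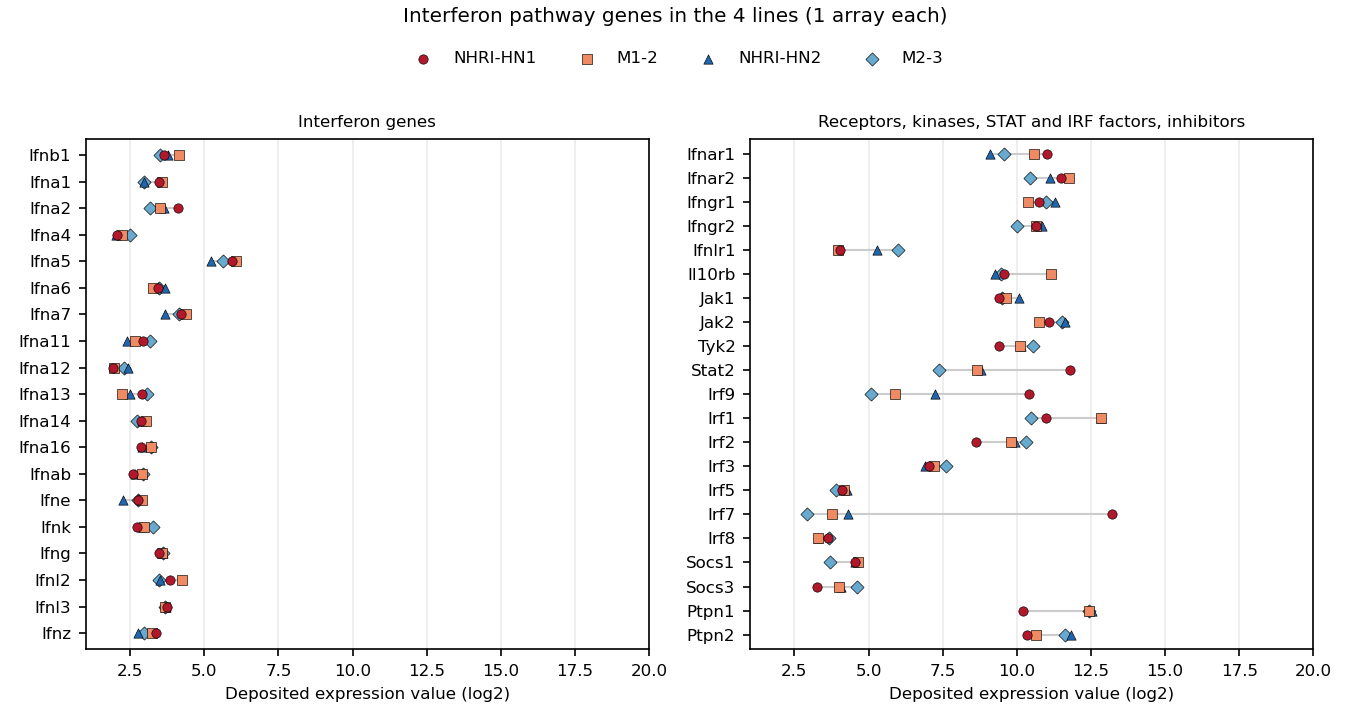
Deposited expression value (log2, horizontal axis) of the interferon genes (left) and of their receptors, kinases, transcription factors and inhibitors (right) in NHRI-HN1, M1-2, NHRI-HN2 and M2-3, 1 point for each array. The interferon genes lie between 1.92 and 6.08 in all lines; Irf7 is at 13.21 in NHRI-HN1 and between 2.93 and 4.32 elsewhere.

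Of the genes that carry the interferon signal, 21 of 22 listed were analysed here. Between NHRI-HN1 and M1-2, 3 were at least 2-fold higher (12.1% of all named genes) and 4 at least 2-fold lower (12.2%), and between NHRI-HN2 and M2-3, 4 were higher (6.52%) and 0 lower (5.69%). In the first pair the share of the list was thus near that of all genes in both directions. The 3 higher genes are transcription factors that are themselves interferon targets. Irf7, the factor that drives interferon alpha genes, was at 13.21 in NHRI-HN1, 3.77 in M1-2, 4.32 in NHRI-HN2 and 2.93 in M2-3, and was the 1 gene of the list called by limma (difference 9.54, SE 0.80, adjusted p = 0.0352). Irf9 was at 10.40 in NHRI-HN1, 5.88 in M1-2, 7.25 in NHRI-HN2 and 5.08 in M2-3. Stat2, its partner in the ISRE-binding complex, was at 11.81 in NHRI-HN1, 8.65 in M1-2, 8.80 in NHRI-HN2 and 7.39 in M2-3.

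The chains of the type I and type II receptors differed by less than 1 unit between NHRI-HN1 and M1-2. Ifnar1 was at 11.03 in NHRI-HN1 and 10.57 in M1-2, and Ifnar2 at 11.49 in NHRI-HN1 and 11.77 in M1-2. Ifngr1 and Ifngr2 stayed between 10.02 and 11.29 in all lines. The 4 lower genes were Ptpn1, a phosphatase of JAK kinases, with 10.20 in NHRI-HN1 and between 12.42 and 12.54 elsewhere, Irf1, Irf2 and the receptor chain Il10rb. Irf1, a factor induced strongly by interferon gamma, was at 10.97 in NHRI-HN1, 12.84 in M1-2, 12.84 in NHRI-HN2 and 10.47 in M2-3, so its level was higher in NHRI-HN2 than in M2-3 and lower in NHRI-HN1 than in M1-2.

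A second list held 36 further genes known as interferon targets, of which 31 were measured. Between NHRI-HN1 and M1-2, 20 were at least 2-fold higher and 3 lower (12.1% and 12.2% of all named genes). Between NHRI-HN2 and M2-3, 11 were higher and 1 lower (6.52% and 5.69%). Between M1-2 and M2-3, 16 were higher and 1 lower (13.7% and 17.0%). The limma fit called 2 of the 31 higher and 0 lower (0.508% and 0.113% of all named genes), with 18 and 0 at an unadjusted p under 0.05. These were Trim30a (difference 6.93, SE 0.54, adjusted p = 0.0342) and Oasl1 (difference 2.27, SE 0.25, adjusted p = 0.0481). Trim30a was at 9.71 in NHRI-HN1 and between 2.49 and 3.16 elsewhere. Oasl2, a relative of the OAS enzymes, was at 14.02 in NHRI-HN1, 6.91 in M1-2, 5.24 in NHRI-HN2 and 3.69 in M2-3. The 3 lower genes in NHRI-HN1 were Psmb8 and Psmb9, subunits of the immunoproteasome, and Tap1, which carries peptides into the endoplasmic reticulum. Other genes of antigen presentation on the list differed by less than 1 unit, with Psme1 at 15.57 in NHRI-HN1 and 15.09 in M1-2, and B2m at 18.57 in NHRI-HN1 and 19.10 in M1-2. Psmb8 was at 9.13 in NHRI-HN1, 11.23 in M1-2, 5.45 in NHRI-HN2 and 3.76 in M2-3. Psmb9 was at 4.66 in NHRI-HN1 and 7.61 in M1-2, and Tap1 at 8.71 in NHRI-HN1 and 10.06 in M1-2.

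Markers of other cell types were read beside these results. Immune cell markers were near the dimmest signals in every line: of 13 measured out of 16, at most 1 exceeded the array median in any line (Cd4, between 4.89 and 5.65). Cd8a was the 1 immune marker at least 2-fold higher in NHRI-HN1 than in M1-2, at 4.84 in NHRI-HN1 and 3.55 in M1-2, both under the array medians. Ptprc, which all white blood cells carry, was at 3.43 in NHRI-HN1, 3.69 in M1-2, 2.97 in NHRI-HN2 and 3.53 in M2-3. None of the 6 endothelial markers exceeded the array median in any line. At the level of RNA, keratinocyte genes did not bear out the label of an oral cancer line in NHRI-HN1. The authors reported staining for pan-cytokeratin and EGFR protein in NHRI-HN1 cells. From these arrays they also reported higher expression of gene sets for myogenesis and epithelial-mesenchymal transition in NHRI-HN1. By immunoblot they found less E-cadherin and more Vimentin protein there than in M1-2, and its orthotopic tumors had sarcomatous features. Of 14 keratinocyte markers measured, 2 exceeded the array median in NHRI-HN1, 11 in M1-2, 13 in NHRI-HN2 and 13 in M2-3. Their levels ranged from 2.48 to 5.15 in NHRI-HN1 and from 3.15 to 15.38 in M1-2. Krt14 was at 3.39 in NHRI-HN1, 15.38 in M1-2, 17.70 in NHRI-HN2 and 18.76 in M2-3. Krt5, Epcam and Dsg3 were under the array median in M1-2 too, at 4.68, 3.15 and 3.72. Of 16 skeletal muscle markers, whose levels ranged from 3.32 to 14.78 in NHRI-HN1 and from 2.45 to 5.90 in M1-2, 15 exceeded the array median in NHRI-HN1, 5 in M1-2, 1 in NHRI-HN2 and 2 in M2-3. These differences of keratinocyte and muscle genes went together with those of the antiviral genes in NHRI-HN1, and their part in the result was not tested.

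Fibroblast markers separated the second pair as the antiviral genes did. Of 11 measured, 8 were at least 2-fold higher in NHRI-HN2 than in M2-3 and 0 lower, against 6.52% and 5.69% of all named genes. Their levels ranged from 2.72 to 14.74 in NHRI-HN2 and from 2.49 to 8.42 in M2-3. Between NHRI-HN1 and M1-2, 5 were higher and 3 lower (12.1% and 12.2%), and between M1-2 and M2-3, 8 were higher and 0 lower (13.7% and 17.0%). The part of these genes in the differences of NHRI-HN2 and M2-3 was not tested either.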

How the data were processed

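Total RNA of 4 cell lines was hybridised to 1 array each. The authors computed the values with Partek Genomics Suite 7 and deposited 1 value per probe set and array, taken here as log2 (range 1.48 to 19.77). How the background was corrected and the arrays were normalized and summarized, and on which log base, is not stated in the sources used here, and detection calls were not used. Lower quartiles between 3.02 and 3.16 mark the dimmest signals, and a difference against a value near them depends on that background; the number of arrays limits the precision.

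Of 22206 probe sets, 19572 had 1 gene symbol in the platform annotation and 2634 had none; probe sets of a gene were averaged. limma 3.58.1 in R 4.3.3 (trend, Benjamini-Hochberg over 19505 genes) was tested on simulated data. The simulated arrays were drawn independently of each other, so that test does not cover the descent of the sublines from their parents. Genes described in full were those called by limma, the 4 largest differences in each direction in each pair and those opposite in both subline pairs; other genes of the set and of the lists were named with their values. The set, the lists and the tests were chosen with earlier results of these data known. Alternatives were quantile normalization, centring on the median, the brightest probe set, a floor at the lower quartile, a filter on dim genes, limma without a trend, a tumor block and leaving out each line.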

Additional observations from a re-analysis of the deposited data

Results flagged for a closer look

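Of the antiviral genes and the listed genes, 6 differed by at least 1 log2 unit in opposite directions in the 2 pairs of subline and parent; the difference between the pairs was not tested, because each line has 1 array. Over all named genes 519 of 19505 did so, and of the 52 antiviral genes 1 did. Samhd1 differed by -1.38 between NHRI-HN1 and M1-2 and by 1.20 between NHRI-HN2 and M2-3. The fibroblast markers Postn and Col1a1 differed by -7.18 and -3.18 between NHRI-HN1 and M1-2 and by 7.75 and 6.43 between NHRI-HN2 and M2-3. Irf1 differed by -1.87 between NHRI-HN1 and M1-2 and by 2.37 between NHRI-HN2 and M2-3. Psmb8 differed by -2.10 between NHRI-HN1 and M1-2 and by 1.69 between NHRI-HN2 and M2-3. Ifi27l2a, a relative of Ifi27, differed by 6.10 between NHRI-HN1 and M1-2 and by -1.14 between NHRI-HN2 and M2-3, with 8.13 in NHRI-HN1, 2.03 in M1-2, 2.54 in NHRI-HN2 and 3.68 in M2-3.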

How the results depend on the processing

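No gene of the set with an unadjusted p under 0.05 in the limma fit reversed direction under the alternatives that tested it. This could hardly come out otherwise, because these genes were picked on the same arrays and each alternative reuses the array of NHRI-HN1. The filter on dim genes left some of these genes out, Isg15 and Rsad2 among them. The limma counts depended on the settings: 99 genes called higher in NHRI-HN1, 22 lower and 5 of the set higher became 221, 36 and 8 with values raised to the lower quartile. They became 0, 0 and 0 without dim genes, without the intensity trend and with a block for the tumor of origin, where the lowest adjusted p from limma was 0.0826, 0.0531 and 0.0520. In these fits 24, 33 and 32 genes of the set had an unadjusted p under 0.05, against 974 of 9755, 1947 of 19505 and 2708 of 19505 genes tested. Leaving out 1 line gave between 0 and 370 genes higher, 0 and 337 lower, and 0 and 13 of the set, with 0 in each case without M2-3 and without NHRI-HN2. In those 2 fits limma gave 26 and 25 of the set an unadjusted p under 0.05, against 1214 and 993 of all named genes. The calls of Ifit1, Ifit3, Ifit3b, Isg15 and Usp18 held under quantile normalization, median centring, the floor and without M1-2. Taking the brightest probe set left their values unchanged, because each gene of the set has 1 probe set. Quantile normalization and centring called Cmpk2 and Iigp1 as well, 7 of the set in all.

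Counts from 2 arrays moved little. Genes of the set at least 2-fold lower in M1-2 than in M2-3 were 1, against 2 with quantile normalization and 3 with centring, and those with M1-2 below all 3 other lines were 1, against 2 and 2; the cause was not tested. The other counts stayed within 1.5 times under every alternative run on them, though the brightest probe set could not move a count of the set. Centring shifted the median of all genes to -0.20 in NHRI-HN2 minus M2-3 and in M1-2 minus M2-3, and the medians of the set were then 0.705 and 0.185. Detection limits were not analysed here, so the size of a difference against a value near 3 is uncertain.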
